A study of Homo sapiens with 8 samples.

Results

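The genes described are the enzymes that add or remove methyl and acetyl groups on histone lysines in MP38 uveal melanoma (UM) cells. They were chosen by symbol, with earlier results of these data known. The symbols are those of the KDM, KMT, KAT, SETD, NSD, SUV39H and EHMT families together with DOT1L, EP300 and CREBBP. The table of 35238 gene symbols held 48 of them, and all 48 passed the filter on low counts that left 15085 genes for testing. They comprise 27 writers, 16 erasers and 5 SET domain genes whose substrate is not a histone or is not settled.

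MP38 is a BAP1-mutant UM cell line, so every value below comes from a single line in culture. Cells received romidepsin at 40 nM, quisinostat at 40 nM or mivebresib at 1200 nM for 24 h, and control cells received 0.1% DMSO, the solvent of the drugs, for the same time. Romidepsin and quisinostat inhibit histone deacetylases (HDAC), the enzymes that take acetyl groups off lysines, whereas mivebresib blocks the bromodomains with which BET proteins read acetylated lysines. RNA of whole wells was sequenced, 2 wells for each of the 4 groups, and p-values therefore measure the spread between wells of one line.

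Histone acetyltransferases open chromatin and mark active promoters and enhancers. Lysine methyltransferases place marks whose meaning depends on the residue, H3K4 and H3K36 methylation being found at active genes and H3K9 and H4K20 methylation in silenced chromatin. Demethylases, either the flavin-dependent KDM1 enzymes or the larger Jumonji family, remove these marks again. Most writers work inside large complexes whose other subunits direct them to their sites. BAP1, the tumour suppressor mutated in this line, is itself a chromatin enzyme that removes ubiquitin from histone H2A.

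The largest rise and one of the largest falls against the control among the enzymes belonged to KDM1B, a flavin-dependent H3K4 demethylase, and SUV39H1, which trimethylates H3K9 in heterochromatin. The sequences just upstream of their RefSeq starts on GRCh38.p14 are shown because both genes recur in every drug comparison below. Only bases ahead of any exon in GENCODE 29 are printed, on the plus strand, and capitals mark CCGCCC, the reverse complement of the GC box GGGCGG. The KDM1B sequence is chr6:18155172-18155328. SUV39H1 has a start downstream of chrX:48695304-48695553 and another downstream of chrX:48696484-48696594.
KDM1B: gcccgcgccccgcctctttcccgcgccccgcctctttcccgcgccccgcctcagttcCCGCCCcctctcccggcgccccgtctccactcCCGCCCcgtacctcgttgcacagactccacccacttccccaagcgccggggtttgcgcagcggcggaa
SUV39H1, first start: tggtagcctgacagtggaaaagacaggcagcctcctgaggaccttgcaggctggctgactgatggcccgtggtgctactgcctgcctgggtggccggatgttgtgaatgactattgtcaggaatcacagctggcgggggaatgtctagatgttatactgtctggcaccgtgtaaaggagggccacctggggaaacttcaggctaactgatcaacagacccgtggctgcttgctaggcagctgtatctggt
SUV39H1, second start: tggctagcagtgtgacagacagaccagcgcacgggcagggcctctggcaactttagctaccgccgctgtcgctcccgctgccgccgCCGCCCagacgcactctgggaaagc

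The KDM1B sequence held the GC box 2 times and the sequence ahead of the downstream SUV39H1 start 1 time, whereas the sequence ahead of the upstream SUV39H1 start did not hold these letters. KAT2B and KAT6B fell slightly further than SUV39H1, but their RefSeq windows lie wholly or mostly within annotated exons and are not shown. RefSeq windows of 250 bases were found for 44 of the 48 genes, 64 windows in all since some genes have several starts. The GC box, searched on both strands, was in 76.6% of the 64 windows and in 61.9% of the 16104 windows of all genes tested. The E-box CACGTG was in 12.5% against 7.98%, CCAAT in 28.1% against 32.6%, and TGACG in 23.4% against 26.7%. TTTGAA was in 1.56% against 9.25%. TATAAA was in 0 of the 64 windows, against 6.13% of all windows. Such matches describe the letters and do not mark binding sites.

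The libraries were alike in depth, with 28483235 to 29359024 counts each. The melanocyte genes MLANA, PMEL, MITF, SOX10 and TYRP1 were abundant in all 8 libraries, TYR had 42 to 111 counts and DCT 0 to 5. Their levels were not constant. MITF had 9899 and 9566 counts in the control libraries, 4186 and 4199 with quisinostat, and 3396 and 3577 with mivebresib. SOX10 and MLANA were likewise lower with quisinostat and mivebresib. PMEL was lower with mivebresib but overlapped the control with quisinostat, and TYRP1 overlapped it with both. The 7 melanocytic markers summed to 3563 to 5452 CPM (counts scaled to a common library size), most of it TYRP1, at 3550 CPM in the control. The 6 fibroblast markers summed to 1.28 to 10.9 CPM and 4 endothelial markers to 0.602 to 5.83 CPM. CD3E and CDH5, defining markers of T cells and endothelium, were at 0 counts throughout. The 5 leukocyte markers summed to 61.2 to 83.3 CPM, nearly all from CD68, a lysosomal gene that tumour cells also express. The HDAC inhibitor libraries had more COL1A1 and KDR, at 110 to 327 and 76 to 159 counts, than the control libraries, at 40 to 45 and 12 to 17 counts, and the part of this in the results was not tested. BAP1 had 1973 to 3002 counts per library. Within each group the libraries differed by more than counting error, and the control pair differed most (chi-square per degree of freedom of 58.1, and of 9.52 to 9.79 in the drug pairs). In the control, 33 of the 48 enzyme genes were higher in replicate 2. Across the 48 genes the log2 difference between the control libraries rose with log10 exon length (r = 0.70, Spearman's rho = 0.67, the points sharing the same 2 libraries). In the romidepsin, quisinostat and mivebresib pairs 15, 29 and 35 of the 48 were higher in replicate 2. There r with exon length was -0.33, 0.53 and 0.48, so the control pair was not alone in this. In bulk RNA, fewer cells expressing a gene and less of its RNA per cell cannot be told apart.

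In control cells the enzyme genes covered a wide range of abundance. Per kb of exon, the most abundant were the H3K4 methyltransferase SETD7 at 24.5, the demethylase KDM1A at 21.1 and the actin histidine methyltransferase SETD3 at 20.6 CPM per kb. The least abundant were KMT5C, which places higher H4K20 methylation, at 0.884, the acetyltransferase KAT6B at 0.678 and the Jumonji protein KDM8 at 0.647 CPM per kb. Writers had a median of 5.48 CPM per kb and erasers of 3.38, or 6.60 and 4.98 when the longest transcript was used as the length. Many neighbours in this order were not separated by their spread, as for KDM1A and SETD3. The median enzyme gene stood at 35.9 CPM in the control against 19.9 CPM for all genes tested, without correction for length.

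**Figure D1:**
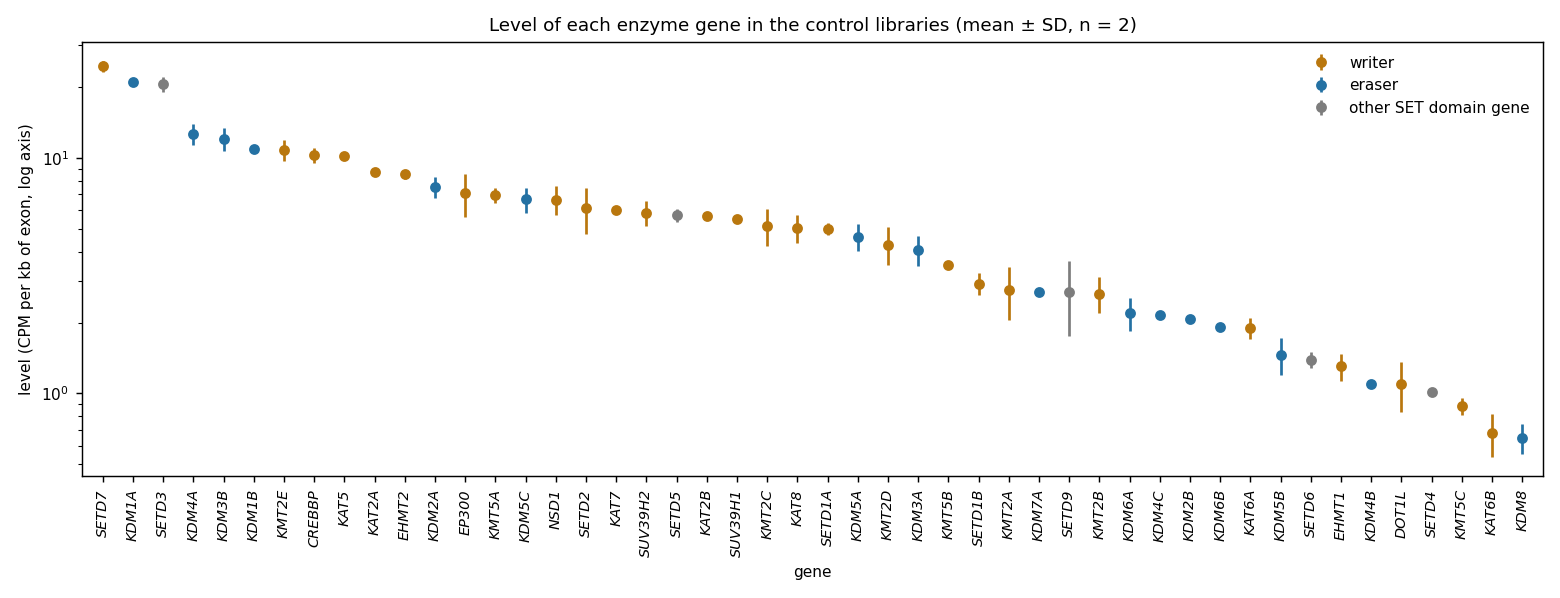
Level of each of the 48 enzyme genes in the 2 control libraries, in CPM per kb of exon on a log axis (points, mean; bars, SD), ordered from high to low and coloured by role. SETD7, KDM1A and SETD3 stand above 20 CPM per kb, and KMT5C, KAT6B and KDM8 below 1.

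Writers as a group were lower with both HDAC inhibitors. With romidepsin, 15 of the 27 writers fell and 0 rose at an adjusted p below 0.05 (edgeR quasi-likelihood test, Benjamini-Hochberg adjustment over all genes tested). With quisinostat 19 fell and 0 rose, and with mivebresib 9 fell and 1, KMT5C, rose. Erasers moved both ways: 4 rose and 4 fell with romidepsin, 2 rose and 5 fell with quisinostat, and 2 rose and 1 fell with mivebresib. Across all genes tested, 15.8% fell and 15.2% rose with romidepsin, 25.1% and 28% with quisinostat, and 24.1% and 22.2% with mivebresib. The median log2 fold change of the writers was -0.46, -0.51 and -0.044 for romidepsin, quisinostat and mivebresib. That of the erasers was -0.081, -0.19 and 0.016, and these signs were not stable. The romidepsin value turned to 0.0036 under upper-quartile factors and the quisinostat value to 0.012 when libraries were scaled by size alone. The mivebresib value turned to -0.053 without control replicate 1. The medians of all genes tested were -0.012, -0.0036 and 0.0067.

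Over all 48 enzyme genes this amounted to 4 higher and 20 lower with romidepsin, 3 higher and 25 lower with quisinostat, and 5 higher and 10 lower with mivebresib. Those lower were 41.7%, 52.1% and 20.8% of the 48, beside 15.8%, 25.1% and 24.1% of all genes tested. Those higher were 8.33%, 6.25% and 10.4%, beside 15.2%, 28% and 22.2%. With mivebresib neither share exceeded that of all genes tested. Scaling by library size alone moved the median of all genes tested up by 0.20 in the quisinostat comparison and gave 6 higher and 13 lower there, and 6 higher and 16 lower with romidepsin. The quisinostat calls lost under it were those of EHMT1, EP300, KAT6A, KDM2A, KDM3B, KDM5C, KDM6B, KMT2B, KMT2E, KMT5A, SETD5 and SUV39H2. The same scaling gave 5625 higher and 2144 lower among all genes tested with quisinostat, in place of 4231 and 3793, and 2787 and 1700 with romidepsin, in place of 2293 and 2377. The control libraries carried weight: without control replicate 2, the number higher with romidepsin was 9, among them the writers DOT1L, KAT6A, KMT2A, KMT2C and SETD2. KMT2C was the 1 writer called higher with romidepsin by DESeq2, with library size alone, with upper-quartile factors and at a mean CPM of at least 5. The calls of EP300, KAT8, KDM2A, KDM6A, KMT2B and KMT5A with romidepsin were lost without either of its libraries, and 2 genes were then higher. Without quisinostat replicate 1, 16 genes were lower with quisinostat, and the calls lost were those of EHMT1, EP300, KAT6A, KDM3B, KDM6B, KMT2B, KMT2E, SETD3, SETD5 and SUV39H2. With mivebresib, 3 genes were higher without replicate 1 and 2 without replicate 2, where the calls of KMT5C and SETD9 were lost each time, with those of DOT1L and KDM5C in the first case and KDM7A in the second. No writer was called higher with quisinostat in any of the 17 settings run, in which 12 to 21 were called lower. Only 1 gene per drug passed a stricter rule, an adjusted p below 0.05 and a log2 fold change beyond 1.5. Each time it was a fall, which 0.312%, 1.03% and 4.36% of all genes tested showed with romidepsin, quisinostat and mivebresib. Rises beyond 1.5 were called in 0 of the 48 genes, and in 569, 1689 and 598 of the 15085 genes tested. The genes that passed were KAT6B with romidepsin, SUV39H1 with quisinostat and KAT2B with mivebresib.

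The 3 drug comparisons share the control libraries, so calls against the control are set side by side here and differences between drugs are taken from direct contrasts. In 7 genes, CREBBP, KAT2A, KAT5, KMT5A, KMT5B, NSD1 and SUV39H1, all writers, the level was lower with each drug, which is 14.6% of the 48 beside 5.81% of all genes tested. In 11 genes (22.9%, beside 4.80% of all genes tested) it was lower with both HDAC inhibitors and not called with mivebresib. In 10 genes (20.8%, beside 26.0%) no drug gave a call. KDM1B was the gene called higher with all 3 drugs, as were 5.40% of all genes tested. Calls in opposite directions by different drugs were made for 0 of the 48 genes and 9.31% of all genes tested.

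**Figure D2:**
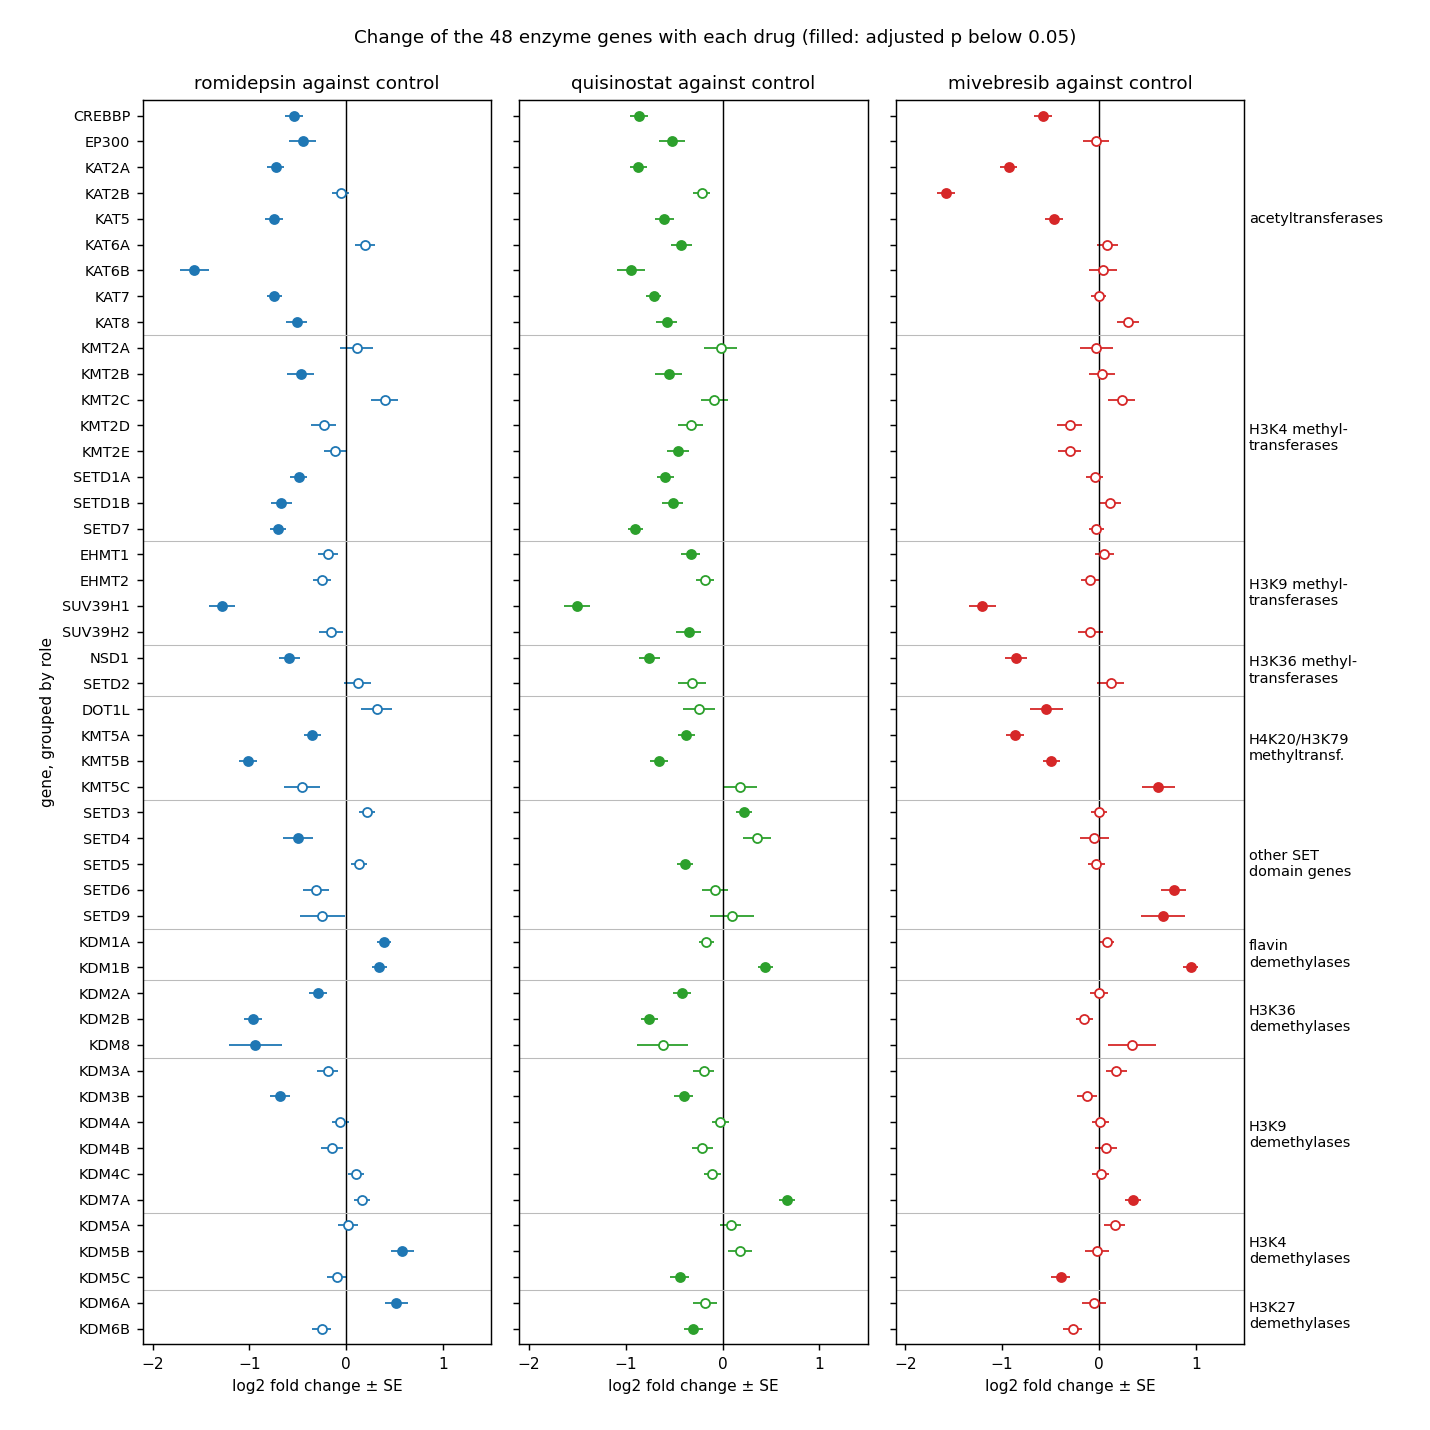
log2 fold change against control (points; bars, SE) of the 48 enzyme genes with romidepsin, quisinostat and mivebresib, grouped by role, from the edgeR fit of all 8 libraries. Filled points have an adjusted p below 0.05. The acetyltransferases and H3K4 methyltransferases lie mostly left of 0 with romidepsin and quisinostat, while most lie near 0 with mivebresib, except KAT2B at -1.58, KAT2A at -0.93, CREBBP at -0.58 and KAT5 at -0.47.

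Among the 9 acetyltransferases, 0 rose with any drug, while 7 fell after romidepsin, 8 after quisinostat and 4 after mivebresib. Of all genes tested, 15.8%, 25.1% and 24.1% fell and 15.2%, 28% and 22.2% rose with these drugs. Their median log2 fold changes were -0.54, -0.60 and -0.032. CREBBP (chr16:3725054-3880726), a coactivator that acetylates histones at enhancers, had 151 and 167 CPM in the control libraries, 112 and 107 with romidepsin, 84.1 and 90.4 with quisinostat, and 102 and 112 with mivebresib. All 6 treated libraries were below both control libraries. Such a lack of overlap with the control, in either direction, was common. It held for 63.6%, 74.2% and 69.7% of all genes tested with romidepsin, quisinostat and mivebresib. The log2 fold changes were -0.54 ± 0.09, -0.87 ± 0.09 and -0.58 ± 0.09 (SE), with adjusted p of 0.00309, 9.83e-05 and 0.00108. Its close relative EP300 fell with romidepsin (log2 fold change -0.45, adjusted p = 0.0361) and quisinostat (-0.52, adjusted p = 0.0114) and had a log2 fold change of -0.03 with mivebresib (adjusted p = 0.867). Both EP300 calls were lost with library size alone, the romidepsin call also under most other settings and the quisinostat call also without quisinostat replicate 1.

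KAT2A and KAT2B are alternative catalytic subunits of the SAGA and ATAC coactivator complexes. KAT2A (chr17:42113108-42121358) had 33.8 and 31.9 CPM in control libraries, 19.8 and 19.8 with romidepsin, 18.8 and 17.1 with quisinostat, and 17.7 and 16.7 with mivebresib. Every treated library was below both control libraries, with log2 fold changes of -0.73 ± 0.09, -0.87 ± 0.09 and -0.93 ± 0.09 (SE; adjusted p = 0.000698, 8.30e-05 and 7.71e-05). KAT2B (chr3:20040023-20154404) had 32.5 and 31.4 CPM in control libraries, 31.3 and 30.0 with romidepsin, 27.3 and 27.7 with quisinostat, and 11.3 and 10.0 with mivebresib. Both mivebresib libraries stood far below the other 6. The fall with mivebresib was -1.58 ± 0.09 (SE; adjusted p = 7.04e-06), and the level was lower than with quisinostat by a log2 fold change of -1.37 (adjusted p = 7.28e-06) and than with romidepsin by -1.52 (adjusted p = 7.22e-06).

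KAT6B (chr10:74824927-75032624), the MYST acetyltransferase also called MORF, was lowest with romidepsin. It had 18.8 and 25.2 CPM in control libraries, 7.11 and 7.75 with romidepsin, 10.8 and 12.1 with quisinostat, and 21.5 and 23.8 with mivebresib. The mivebresib libraries lay between the control libraries, and all HDAC inhibitor libraries lay below them. Against the control it changed by -1.57 ± 0.15, -0.95 ± 0.15 and 0.04 ± 0.14 (SE; adjusted p = 0.000256, 0.000825 and 0.831). The level was higher with mivebresib than with romidepsin by 1.61 (adjusted p = 6.80e-05) and than with quisinostat by 0.99 (adjusted p = 0.000543). The smaller difference of 0.62 between quisinostat and romidepsin (adjusted p = 0.0157) was lost when either romidepsin library or quisinostat replicate 2 was left out.

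KAT7 (HBO1) and KAT8 (MOF, which acetylates H4K16) also fell with both HDAC inhibitors. KAT7 fell by 0.74 and 0.71 on the log2 scale (adjusted p = 0.000377 and 0.000129) and had an adjusted p of 0.975 with mivebresib. It overlaps FAM117A on the opposite strand, which had a log2 fold change of 1.91 with quisinostat (adjusted p = 0.000184), the reverse of KAT7. KAT8 fell by 0.51 and 0.58 (adjusted p = 0.00973 and 0.00261). With mivebresib its log2 fold change was in the other direction, at +0.30 (adjusted p = 0.0509), from 24.0 and 19.7 CPM in control libraries to 27.4 and 26.5. That difference was called higher with library size alone, with upper-quartile factors, by limma-voom, at a mean CPM of at least 5, with the replicate block and without control replicate 1. For both, the direct contrasts of mivebresib with each HDAC inhibitor were called, at 0.71 to 0.88 higher with mivebresib. KAT5 (TIP60) fell with all 3 drugs, by 0.75, 0.60 and 0.47, and overlaps RNASEH2C on the opposite strand, which rose with mivebresib by 0.60. KAT6A (MOZ) fell with quisinostat by 0.43 (adjusted p = 0.00943), had a log2 fold change of 0.19 with romidepsin (adjusted p = 0.194), and was lower with quisinostat than with romidepsin by -0.62 (adjusted p = 0.00288).

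**Figure D3:**
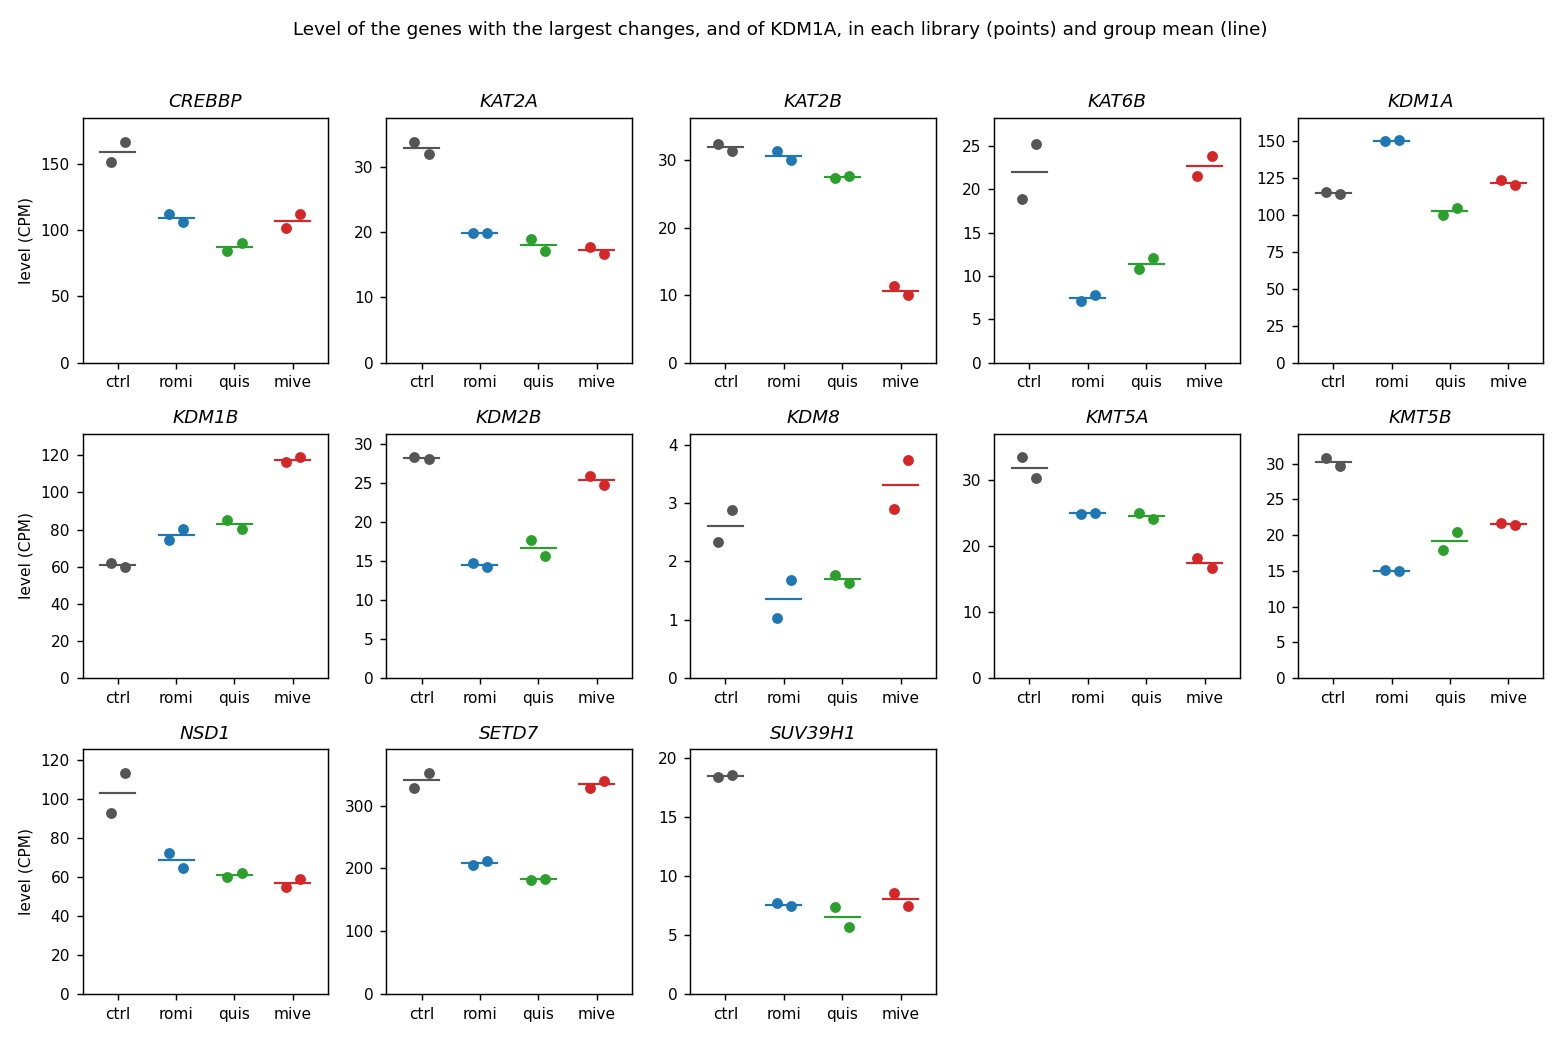
Level in CPM, on axes that start at 0, of 13 enzyme genes in each library (points) with the mean of the 2 libraries (line) for control (ctrl), romidepsin (romi), quisinostat (quis) and mivebresib (mive). The genes are those called with a log2 fold change of at least 0.8 in size with some drug, and KDM1A, the most abundant eraser. KAT2B is lowest with mivebresib, at 11.3 and 10.0 CPM, KAT6B with romidepsin, at 7.11 and 7.75, and KDM1B is highest with mivebresib, at 116 and 119.

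Of the 8 genes of the H3K4 methyltransferase group, 0 rose, and 4 fell after romidepsin, 5 after quisinostat and 0 after mivebresib. The shares of all genes tested were 15.8%, 25.1% and 24.1% lower and 15.2%, 28% and 22.2% higher. SETD7 (chr4:139495941-139606699), the most abundant writer, had 329 and 352 CPM in control libraries, 206 and 211 with romidepsin, 181 and 183 with quisinostat, and 328 and 340 with mivebresib. The 4 HDAC inhibitor libraries were below the other 4, and the mivebresib libraries overlapped the control. The log2 fold changes were -0.71 ± 0.08, -0.90 ± 0.08 and -0.03 ± 0.08 (SE; adjusted p = 0.000501, 4.02e-05 and 0.806), and the level was higher with mivebresib than with quisinostat by 0.87 (adjusted p = 3.77e-05) and than with romidepsin by 0.68 (adjusted p = 0.000208). SETD1A and SETD1B, catalytic subunits of the COMPASS complexes, fell by 0.49 and 0.67 with romidepsin and by 0.59 and 0.51 with quisinostat. With mivebresib their log2 fold changes were -0.04 and 0.12 (adjusted p = 0.697 and 0.409), and both were higher with mivebresib than with either HDAC inhibitor.

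In the MLL family KMT2B fell with romidepsin (log2 fold change -0.47, adjusted p = 0.0321) and quisinostat (-0.56, adjusted p = 0.00891), and both calls were lost with library size alone. It overlaps IGFLR1 on the opposite strand, which also fell with romidepsin and quisinostat (log2 fold change -1.01 and -0.83, adjusted p = 0.0132 and 0.0152), so the counts of KMT2B are uncertain. KMT2A had log2 fold changes of 0.11, -0.02 and -0.03 with romidepsin, quisinostat and mivebresib, KMT2D of -0.23, -0.33 and -0.30, and KMT2C of 0.40, -0.08 and 0.24, none of them called. KMT2C shares sequence with pseudogene copies, so its counts are uncertain. KMT2E (MLL5), for which methyltransferase activity is doubtful, fell with quisinostat by 0.46 (adjusted p = 0.00944). The SE of KMT2A was 0.17, and its control libraries stood apart at 70.7 and 101 CPM.

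SUV39H1 (chrX:48695554-48709012), whose upstream sequences are shown above, was the H3K9 methyltransferase with the largest fall. It had 18.4 and 18.5 CPM in control libraries, 7.66 and 7.47 with romidepsin, 7.38 and 5.64 with quisinostat, and 8.52 and 7.48 with mivebresib. All treated libraries were below both control libraries, and those of romidepsin and mivebresib overlapped. On the log2 scale SUV39H1 changed by -1.29 ± 0.14, -1.50 ± 0.14 and -1.21 ± 0.14 (SE; adjusted p = 0.000377, 4.74e-05 and 0.000184). Differences between the drugs were not called: -0.22 for quisinostat against romidepsin (estimate ± 2 SE, -0.51 to 0.07), 0.08 for mivebresib against romidepsin (-0.21 to 0.37) and 0.30 for mivebresib against quisinostat (adjusted p = 0.108), the last of which was called without quisinostat replicate 1. Its relative SUV39H2 fell with quisinostat (log2 fold change -0.35, adjusted p = 0.0471), a call lost under most of the settings run. EHMT1, a writer of lower H3K9 methylation, fell with quisinostat by 0.33 (adjusted p = 0.0227), a call lost under several settings. Its partner EHMT2 had log2 fold changes of -0.25, -0.18 and -0.09, none called.

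NSD1 (chr5:177133025-177300215), which places H3K36 dimethylation, had 92.7 and 113 CPM in control libraries, 72.3 and 64.7 with romidepsin, 59.8 and 62.0 with quisinostat, and 54.9 and 58.9 with mivebresib. Every treated library was below both control libraries. NSD1 changed by -0.59 ± 0.11, -0.76 ± 0.11 and -0.86 ± 0.11 (SE; adjusted p = 0.00482, 0.000554 and 0.000364). SETD2, which adds the last methyl group at H3K36, was not called against the control (0.12, -0.32 and 0.12), but was lower with quisinostat than with romidepsin by -0.43 (adjusted p = 0.041), a call lost when either library of either drug was left out. NSD2 and NSD3 are in the table under the older symbols WHSC1 and WHSC1L1, which the choice by symbol did not match. WHSC1 fell with all 3 drugs (log2 fold change -0.41, -0.81 and -0.88), and WHSC1L1 with quisinostat and mivebresib (-0.45 and -0.57), with -0.24 for romidepsin (adjusted p = 0.0876).

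The H4K20 methyltransferases moved in both directions. KMT5A (chr12:123383773-123409358), which places the single methyl group on H4K20, had 33.4 and 30.2 CPM in control libraries, 24.9 and 25.0 with romidepsin, 25.0 and 24.1 with quisinostat, and 18.1 and 16.7 with mivebresib. The mivebresib libraries were the lowest and the control libraries the highest, without overlap. The fall with mivebresib was -0.87 ± 0.09 (SE; adjusted p = 0.00011), and the level was lower than with quisinostat by -0.49 and than with romidepsin by -0.52. The falls of 0.35 with romidepsin (adjusted p = 0.0173) and 0.37 after quisinostat (adjusted p = 0.00678) were called here, but the romidepsin call was lost under several settings, among them without control replicate 1 or either romidepsin library, and the quisinostat call without quisinostat replicate 2 or with library size alone.

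KMT5B (chr11:68154863-68213828), which adds further methyl groups to H4K20, had 30.9 and 29.7 CPM in control libraries, 15.1 and 15.0 with romidepsin, 17.9 and 20.5 with quisinostat, and 21.7 and 21.4 with mivebresib. The 6 treated libraries were below the control libraries, and the romidepsin libraries were lowest. KMT5B changed by -1.01 ± 0.09, -0.66 ± 0.09 and -0.49 ± 0.09 (SE; adjusted p = 0.000184, 0.000423 and 0.00243). KMT5C, its relative, rose with mivebresib by 0.62 ± 0.17 (SE; adjusted p = 0.0177), from 4.46 and 3.98 to 6.33 and 6.62 CPM, a call lost without control replicate 2 or either mivebresib library. DOT1L, the H3K79 methyltransferase, fell with mivebresib by 0.54 on the log2 scale (adjusted p = 0.0287), and this call was lost without control replicate 2 or mivebresib replicate 1. Its control libraries stood at 10.2 and 14.5 CPM, and DOT1L overlaps AP3D1 and PLEKHJ1 on the opposite strand.

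Of the 5 SET domain genes outside the histone writers, SETD6 and SETD9 rose with mivebresib. SETD6, which methylates the NF-kB subunit RELA, went from 6.70 and 7.45 CPM in control libraries to 11.3 and 12.8 with mivebresib, with log2 fold change 0.77 ± 0.13 (SE; adjusted p = 0.00165). It overlaps CNOT1 on the opposite strand, and whether counting used strand is not given in the sources used here. SETD9 had a log2 fold change of 0.66 with mivebresib (adjusted p = 0.0386), lost in the leave-one-out fits of every library but control replicate 1, and it overlaps MIER3. SETD5 fell with quisinostat by 0.39 (adjusted p = 0.00559), SETD4 with romidepsin by 0.50 (adjusted p = 0.0398), and SETD3 rose with quisinostat by 0.22 (adjusted p = 0.0473). The SETD4 and SETD3 calls were each lost under most of the settings run. SETD4, KMT2E and SUV39H2 overlap CBR1, SRPK2 and DCLRE1C on the opposite strand, none of which was called with the drug that gave their calls. SETD4 was higher with quisinostat than with romidepsin by 0.86 (adjusted p = 0.00327).

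Both flavin-dependent demethylases rose with romidepsin, and KDM1B rose with every drug. KDM1B (chr6:18155329-18223853), or LSD2, had 62.2 and 59.6 CPM in control libraries, 74.4 and 80.0 with romidepsin, 85.3 and 80.1 with quisinostat, and 116 and 119 with mivebresib. All treated libraries exceeded the control, and the mivebresib libraries exceeded all others. KDM1B changed by 0.34 ± 0.08, 0.44 ± 0.08 and 0.95 ± 0.08 (SE; adjusted p = 0.0126, 0.00175 and 3.83e-05), and the level was higher with mivebresib than with quisinostat by 0.51 (adjusted p = 0.000668) and than with romidepsin by 0.61 (adjusted p = 0.000345). The romidepsin call was lost without romidepsin replicate 2 and with the 4 libraries of that comparison fitted alone. KDM1A (chr1:23019443-23083689), or LSD1, a subunit of corepressor complexes that also hold HDAC enzymes, had 115 and 114 CPM in control libraries, 150 and 151 with romidepsin, 99.7 and 105 with quisinostat, and 123 and 120 with mivebresib. Its rise with romidepsin was 0.39 ± 0.07 (SE; adjusted p = 0.00488). The level of KDM1A was lower with quisinostat than with romidepsin by -0.56 (adjusted p = 0.000825). Both drugs are HDAC inhibitors given at 40 nM, which does not match them for potency.

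The H3K36 demethylases KDM2A and KDM2B and their relative KDM8 were all called lower with romidepsin, but the calls of KDM2A and KDM8 were not stable. KDM2B (chr12:121429097-121581015), which binds CpG islands and recruits a Polycomb complex, had 28.3 and 28.2 CPM in control libraries, 14.8 and 14.3 with romidepsin, 17.7 and 15.7 with quisinostat, and 26.0 and 24.8 with mivebresib. The HDAC inhibitor libraries did not overlap with the other 4. The log2 fold changes were -0.96 ± 0.09, -0.76 ± 0.09 and -0.15 ± 0.09 (SE; adjusted p = 0.000226, 0.000192 and 0.191), and the level was higher with mivebresib than with romidepsin by 0.81 (adjusted p = 0.000171) and than with quisinostat by 0.60 (adjusted p = 0.00056). KDM2B overlaps RNF34 on the opposite strand, which also fell with quisinostat (log2 fold change -0.62, adjusted p = 0.000518). The counts of KDM2B with quisinostat are therefore uncertain. With romidepsin RNF34 had a log2 fold change of -0.16 (adjusted p = 0.209). KDM8 (chr16:27203495-27221768) was near the limit of the data, with 2.34 and 2.89 CPM in control libraries, 1.03 and 1.69 with romidepsin, 1.77 and 1.62 with quisinostat, and 2.89 and 3.74 with mivebresib. Its change with romidepsin was -0.94 ± 0.27 (SE; adjusted p = 0.0316), a call lost under several settings, among them without control replicate 2 or romidepsin replicate 1. KDM2A fell by 0.29 with romidepsin (adjusted p = 0.0411), a call lost under most of the settings run. With quisinostat it fell by 0.42 (adjusted p = 0.00472).

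Among the 6 H3K9 demethylases most values were small. KDM3A, KDM4A, KDM4B and KDM4C were not called with any drug, and their log2 fold changes against the control lay between -0.21 and 0.18. KDM3B fell with romidepsin by 0.68 (adjusted p = 0.00185) and quisinostat by 0.40 (adjusted p = 0.00979). KDM7A, which also acts on H3K27, rose with quisinostat by 0.66 ± 0.08 (SE; adjusted p = 0.000265) and mivebresib by 0.36 ± 0.08 (adjusted p = 0.00862), from 25.0 and 25.8 CPM to 41.4 and 39.1 and to 31.1 and 34.0. The level was higher with quisinostat than with romidepsin by 0.50 (adjusted p = 0.00253).

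Of the H3K4 demethylases of the KDM5 family, KDM5B rose with romidepsin by 0.58 ± 0.12 (SE; adjusted p = 0.00829), from 33.1 and 42.4 to 58.1 and 54.8 CPM, and was lower with quisinostat than with romidepsin by -0.40 (adjusted p = 0.0321). The KDM5B call against the control was lost without romidepsin replicate 1. KDM5C fell with quisinostat by 0.44 (adjusted p = 0.00591) and mivebresib by 0.40 (adjusted p = 0.0121), and KDM5A was not called (0.01, 0.08 and 0.16). Of the H3K27 demethylases, KDM6A, a subunit of the KMT2C and KMT2D complexes, rose with romidepsin by 0.52 ± 0.12 (SE; adjusted p = 0.0130), a call lost without either romidepsin library. It was lower with quisinostat than with romidepsin by -0.70 (adjusted p = 0.00292). KDM6B fell with quisinostat by 0.30 (adjusted p = 0.0291), a call lost under several settings.

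Direct contrasts set the drugs against each other. Romidepsin and quisinostat were given at the same dose. The paper reports that romidepsin was the more potent in MP38 cells and is specific for class I HDAC enzymes. Mivebresib differs in target and dose, so all 3 contrasts compare treatments as given. Quisinostat against romidepsin gave 5 genes higher and 11 lower of 48, against 21% and 14.6% of all genes tested, and library size alone gave 7 and 4 and upper-quartile factors 6 and 7. Leaving out either library of either drug lowered the number of calls from 16 to between 6 and 8, and those of CREBBP, DOT1L, KDM5B, KDM5C, KMT2C, KMT2E and SETD2 were lost each time. Mivebresib against quisinostat gave 21 higher and 5 lower (26.2% and 31.5% of all genes tested), or 13 and 7 with library size alone. Mivebresib against romidepsin gave 20 higher and 7 lower (23.7% and 25.2%). The largest called differences in these 3 contrasts were those of KAT6B and KAT2B given above and that of KDM8, 1.28 higher with mivebresib than with romidepsin (adjusted p = 0.00421).

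The summed level of writers fell relative to that of erasers in every treated library. The 27 writers summed to 1576 and 1800 CPM in the control libraries, 1348 and 1306 with romidepsin, 1133 and 1185 with quisinostat, and 1436 and 1547 with mivebresib. The 16 erasers summed to 706 and 786 CPM in control libraries and to 683 to 819 CPM in the treated libraries. The ratio of the sums, which does not depend on how libraries are scaled, was 2.23 and 2.29 in the control, 1.79 and 1.77 with romidepsin, 1.66 and 1.70 with quisinostat, and 1.82 and 1.89 with mivebresib. Control and treated libraries did not overlap, and the changes in the log2 ratio were -0.35, -0.43 and -0.29. SETD7 is the most abundant writer, and without it the changes were -0.27, -0.35 and -0.33. Per kb of exon they were -0.45, -0.47 and -0.41. KDM1B, an abundant eraser that rose by 0.95 on the log2 scale with mivebresib, weighs on the mivebresib sums. The ratio without KDM1B was not taken. The sums and ratios are descriptions of the 8 libraries, and no test was made on them.

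**Figure D4:**
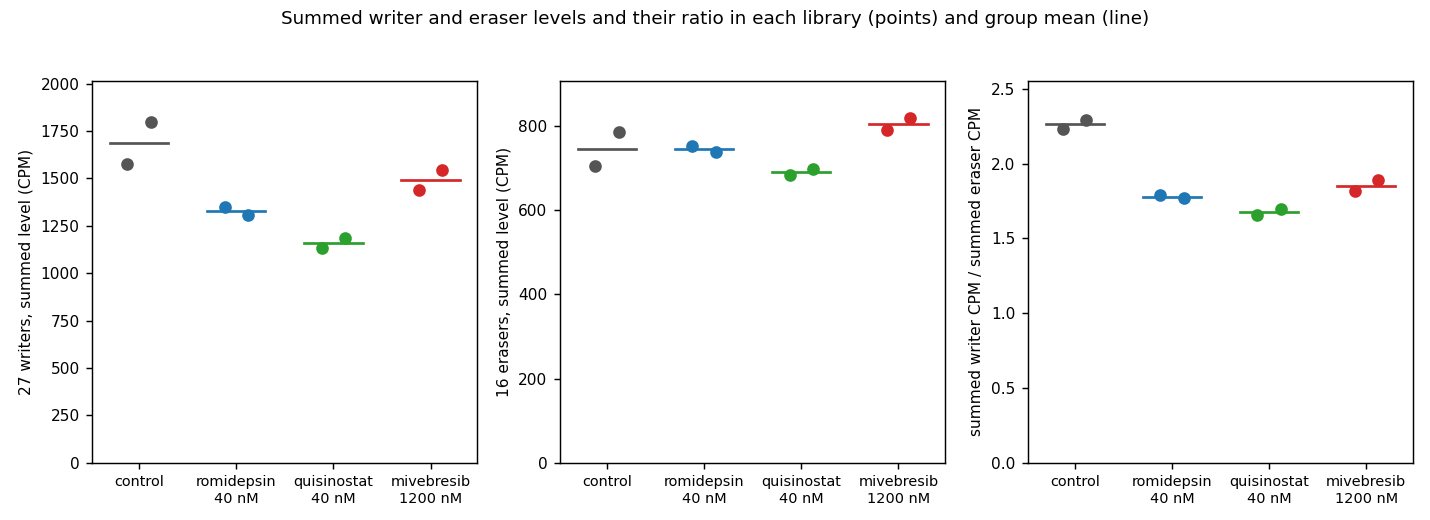
Summed level of the 27 writers (left, CPM) and the 16 erasers (middle, CPM) and their ratio (right, no unit) in each library (points) with the mean of the 2 libraries (line). The ratio is 2.23 and 2.29 in the control libraries and 1.66 to 1.89 in the treated libraries, while eraser sums of control and treated libraries overlap.

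The subunits that work with these enzymes, and enzymes of the same kinds with other names, were examined from a written list of 96 genes, 91 of which passed the filter. With romidepsin 3 rose and 38 fell, with quisinostat 7 rose and 51 fell, and with mivebresib 12 rose and 32 fell, with median log2 fold changes of -0.25, -0.36 and -0.05. These stand beside the shares of all genes tested given above. Of the 17 partners of KAT6A, KAT6B, KAT7 and KAT8 in the MOZ, HBO1, MSL and NSL complexes, 10 fell after romidepsin, 12 after quisinostat and 5 after mivebresib, while 2 rose after mivebresib. Of 20 SAGA and ATAC subunits, 9, 10 and 6 fell and 3 rose with mivebresib. Of 15 TIP60 subunits, 6, 8 and 6 fell and 0, 2 and 2 rose. Of 14 COMPASS and MLL subunits, 6, 7 and 3 fell and 1, 2 and 3 rose.

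JADE2, a scaffold of the HBO1 complex, had the largest falls of the list with romidepsin and mivebresib. It had 74.5 ± 0.317 CPM in the control, 26.98 ± 0.0277 with romidepsin, 34.5 ± 1.22 with quisinostat and 9.002 ± 1.29 with mivebresib (mean ± SD, n = 2). The log2 fold changes were -1.47, -1.11 and -3.05. HCFC1, a subunit of COMPASS complexes that also binds BAP1, fell from 138 ± 15.3 to 58.3 ± 5.19 CPM with romidepsin and 58.9 ± 3.79 with quisinostat (log2 fold change -1.24 and -1.23), against 119 ± 1.78 with mivebresib (-0.21, adjusted p = 0.131). BRPF3 and EPC1, subunits of HBO1 and TIP60 complexes, had the largest falls with quisinostat, at -1.46 and -1.41, and also fell with the other drugs.

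Fewer genes of this list rose than fell. With romidepsin the coactivator NCOA3 rose by 0.62 (adjusted p = 0.0034) and the Jumonji gene JMJD1C by 0.41 (adjusted p = 0.0407). With quisinostat MECOM rose by 1.56 (adjusted p = 0.0167) and HR, a Jumonji H3K9 demethylase, by 0.82 (adjusted p = 0.0273), both from low levels of 0.234 ± 0.0305 and 1.51 ± 0.0182 CPM in the control. HR fell with mivebresib to 0.237 ± 0.131 CPM (log2 fold change -2.66, adjusted p = 0.000713). NCOA1 and the methyltransferase gene SMYD3 rose with mivebresib by 0.84 and 0.83 (adjusted p = 0.000196 and 0.000188).

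**Figure D5:**
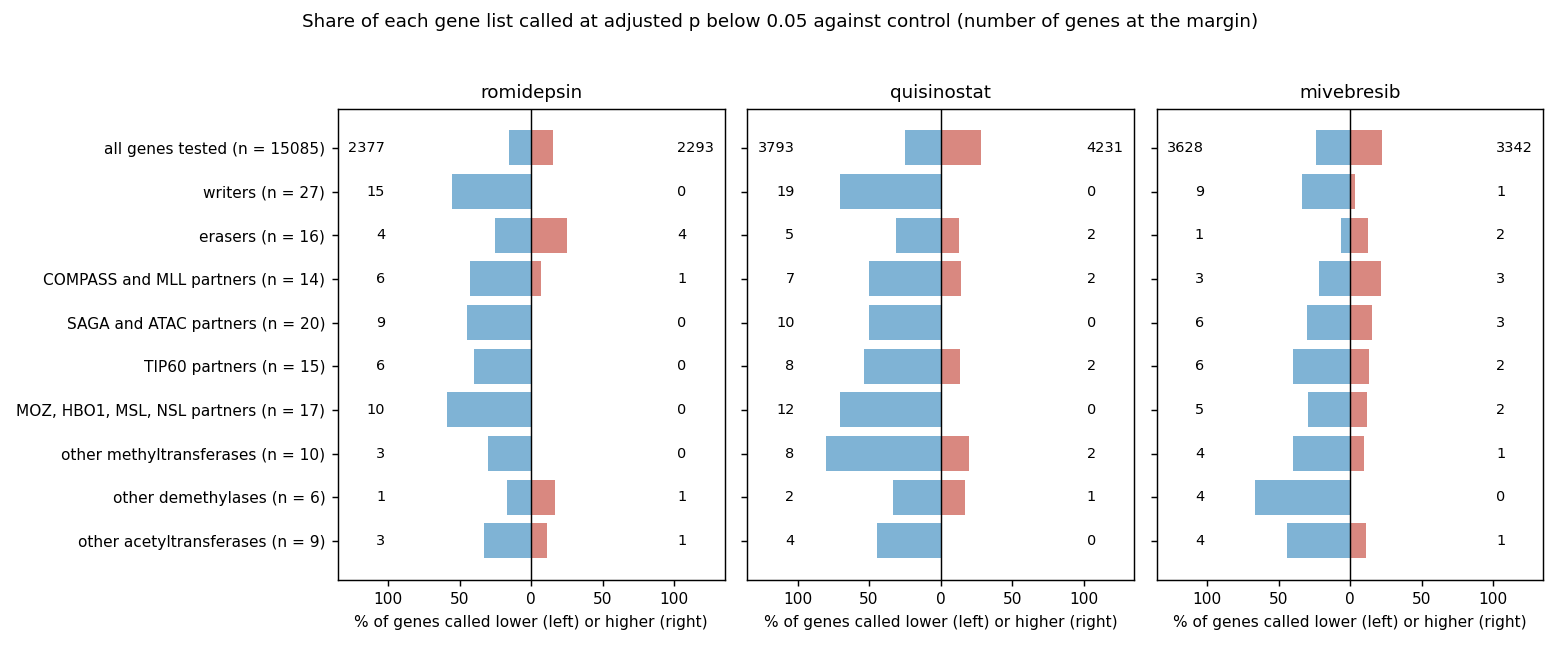
Share of genes called lower (left of 0) and higher (right of 0) against control at an adjusted p below 0.05 for all genes tested, the writers, the erasers, and the lists of partners and other enzymes, by drug, with the number of genes at the margins. Among writers, 0 are called higher with romidepsin or quisinostat and 15 and 19 are called lower.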

How the data were processed

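Bulk RNA sequencing of 4 groups of 2 MP38 libraries was used, grouped by the sample labels. The authors made gene counts from paired-end reads with BioJupies and deposited them without normalization. They also deposited log10 values, which equal log10(CPM + 1) of the counts, and a quantile-normalized table whose scale is not named and which was not used here. The submitters' processing notes name hg38. The aligner, annotation and use of strand are not given in the sources used here.

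The quasi-likelihood test of edgeR 4.0.16 (R 4.3.3) was run on the counts of all 8 libraries in one model without covariates, after TMM scaling and filterByExpr with the groups. Genes were called at a Benjamini-Hochberg adjusted p below 0.05 over 15085 genes, and the biological coefficient of variation was 0.0938. The fit was tested on simulated data in which 200 genes changed 2-fold in the romidepsin group, fewer than were called in the real data. It called 76.3% of the changed genes that passed the filter, with 8 false calls. Of those with a mean control count of at least 100, it called 95.8%. CPM were scaled by TMM and divided by the GENCODE 29 exon union (GRCh38) where genes were compared. Sequences are from RefSeq (GRCh38.p14). The depth of 28483235 to 29359024 counts per library makes counting error small beside the spread of 2 wells for genes with high counts. This does not hold for genes with low counts, and the lowest count of an enzyme gene in a library was 30.

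The genes, lists and roles were chosen with earlier results of these data known. Per-library values are given for genes called with a log2 fold change of at least 0.8 in size with some drug and for the most and least abundant writer and eraser, and of partners and other enzymes the 2 largest rises and falls per drug. Other genes are given by their calls.

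Alternatives were DESeq2 1.42.0, limma-voom (limma 3.58.1), scaling by library size alone or by upper quartiles, no filter, a mean CPM of at least 5, the 4 libraries of a comparison alone, a replicate block, a log2 fold change threshold of 1.5, the longest transcript as length, and each library left out. Other values of the writer to eraser ratio were added after seeing the data. Python 3.11.15, pandas 2.3.3 and matplotlib 3.10.9 were used for tables and figures. Libraries of other lines were not analysed here.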

Additional observations from a re-analysis of the deposited data

How the results depend on the processing

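With 2 wells per group, a fit without 1 library assumes that the lone library of its group varies like the others. Under such fits the number of enzyme genes higher was 2 to 9 with romidepsin, 2 to 7 with mivebresib, 2 to 6 for quisinostat against romidepsin and 13 to 26 for mivebresib against quisinostat. The number lower was 16 to 28 with quisinostat, 4 to 13 for quisinostat against romidepsin and 2 to 6 for mivebresib against quisinostat, and the writers' median with mivebresib was -0.15 to 0.016. Fitting the 4 libraries of the romidepsin comparison alone left 13 genes lower. A threshold of 1.5 on the log2 fold change left 0 genes higher and 1 lower with each drug, beside the numbers for all genes tested given above. With library size alone, quisinostat had 6 higher and 13 lower, quisinostat against romidepsin 4 lower and mivebresib against quisinostat 13 higher, and upper-quartile factors gave 7 lower for quisinostat against romidepsin. Without a filter on low counts, 3 genes were lower for mivebresib against quisinostat. The writers' median was -0.37 with romidepsin under upper-quartile factors, and with quisinostat -0.31 under library size alone and -0.38 under upper-quartile factors. The erasers' median with quisinostat was 0.012 under library size alone, -0.059 under upper-quartile factors and -0.088 at a mean CPM of at least 5. Over the longest transcript, control medians were 6.60 CPM per kb for writers and 4.98 for erasers. Chosen after seeing the data, the writer to eraser ratio without SETD7 changed by -0.27, -0.35 and -0.33 and per kb of exon by -0.45, -0.47 and -0.41 with romidepsin, quisinostat and mivebresib. Apart from the scaling shift given with the counts, the cause of these differences was not tested. Neither labels nor methods tie the replicate numbers to a batch. The deviations of same-numbered libraries correlated at -0.16 to 0.16 between groups. Correlations of this size cannot settle whether the numbers pair the samples. With the replicate number as a block, 5 genes were higher and 19 lower with romidepsin, 2 and 25 with quisinostat, and 6 and 11 with mivebresib, KMT2C being called higher and KDM2A no longer lower with romidepsin. For the 12 genes with a called log2 fold change of at least 0.8 in size, every comparison was repeated, whether called or not. The value stayed called or not called as before in 1099 of the repeats, lost the call in 34 and gained one in 13. In 0 did a called value change sign, which was not asked of values that were not called. These genes were chosen for large calls in the main fit, so the counts do not describe the other genes.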
